A study of Mus musculus with 24 samples.

Results

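The semaphorins, plexins and neuropilins are a family of guidance ligands and their receptors. The members were chosen by gene symbol, as every gene named Sema3 to Sema7 with a letter, Plxn with a letter from a to d and a number, or Nrp1 or Nrp2. This symbol rule used no measured value, but the family was picked with earlier results of these data known, so counts within it are descriptive. The rule gave 31 of the 46078 genes in the tables: 20 semaphorins, 9 plexins and 2 neuropilins. Expression was measured by RNA-seq in 16 mouse libraries, in 4 groups of 4. Satellite cells, the stem cells of skeletal muscle, came from Chd4dPax7ER and from Chd4fl/fl mice and were sorted 3 days after their muscle was injured with cardiotoxin. Primary myoblasts grown from satellite cells of uninjured Chd4fl/fl muscle were kept in proliferating conditions and taken 72 hours after infection with an adenovirus for CRE (AdCRE) or for GFP (AdGFP). All mice were C57BL/6, aged 2 to 4 months, and all cells had been sorted as negative for SCA1 and CD45 and positive for alpha7-integrin and CD34. The AdCRE virus alone carried CRE, so effects of the recombinase and of Chd4 loss cannot be told apart in the cultures. In the sorted cells the Chd4dPax7ER label alone names Pax7ER, and whether Chd4fl/fl mice received the same induction is not stated in the sources used here. The labels do not say that replicates came from separate mice or cultures, so the p-values below measure the spread between these libraries.

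Semaphorins share a sema domain. Class 3 members are secreted, classes 4, 5 and 6 span the membrane, and Sema7a is held there by a lipid anchor. Plexins are the receptors that carry the signal into the cell, through a GTPase-activating domain and effectors such as collapsin response mediator proteins and MICAL oxidases, while neuropilins bind most class 3 semaphorins and also VEGF and pair with plexins. The family is best known for steering axons and vessels. In cultured rodent satellite cells, Sema3A is known to be released in response to HGF and FGF2 and has been linked to slow-fibre genes through neuropilin-2 and plexin-A3.

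The targeted gene followed the labels. Chd4 lay between 48.7 and 64.1 RPKM (reads scaled to gene length and to the reads of the library) in Chd4dPax7ER cells and between 119 and 135 in Chd4fl/fl cells. In AdCRE cultures it lay between 15.8 and 23.9 RPKM, against 67.8 to 85.5 in AdGFP cultures. Satellite cell and myoblast markers summed to 1110 to 1340 RPKM in Chd4dPax7ER cells, to 682 to 860 in Chd4fl/fl cells, to 1250 to 1580 in AdCRE cultures and to 1260 to 1340 in AdGFP cultures. Of the 9 markers in the sorted cells 4 rose at a limma adjusted p under 0.05 (Des, Itga7, Myod1 and Sdc4), beside 14.7% of all genes. Pax7, the factor that marks satellite cells, fell to 11.5 ± 2.94 RPKM in Chd4dPax7ER cells, against 21.3 ± 6.43 RPKM in Chd4fl/fl cells. Its log2 fold change was -0.85 (limma adjusted p = 0.0301), where 11.9% of all genes passed as lower. A gene was tested if it reached 0.5 RPKM in at least 4 of the 8 libraries of a setting. This left 27 of the 31 members in sorted cells and 24 in cultures.

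A different ligand had the highest mean in each setting. RPKM is a level per gene length, so members can be ranked within a library, but the sorted cells and the cultures were normalised in separate tables and their levels are set side by side here without a test. In sorted cells Sema6a led the semaphorins with 27.2 ± 1.77 RPKM in Chd4dPax7ER and 25.7 ± 2.45 RPKM in Chd4fl/fl cells (mean ± SD, n = 4 each), and no library of the second-ranked Sema4c reached the lowest Sema6a library of its group. Sema4c and Sema4b came next, and their ranges overlapped in Chd4dPax7ER cells but not in Chd4fl/fl cells. In cultures Sema3e led with 48.8 ± 14.2 RPKM in AdCRE and 45.1 ± 11.9 RPKM in AdGFP cells, a lead of the means only, since the ranges of the next member, Sema7a, overlapped its own in both groups and Sema7a was the higher in AdGFP replicate 1 (46.7 against 42.6 RPKM). Sema3e held 25.2 to 37.8% and 26.4 to 37.9% of the summed semaphorin RPKM. In the sorted cells it held 1.04 to 1.89% in Chd4dPax7ER and 3.20 to 3.85% in Chd4fl/fl cells. Class 3 as a whole made up 36.4 to 49.8% of the semaphorin sum in AdCRE and 35.8 to 50.0% in AdGFP cultures, against 9.66 to 22.1% in Chd4dPax7ER and 15.3 to 17.9% in Chd4fl/fl cells.

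**Figure D1:**
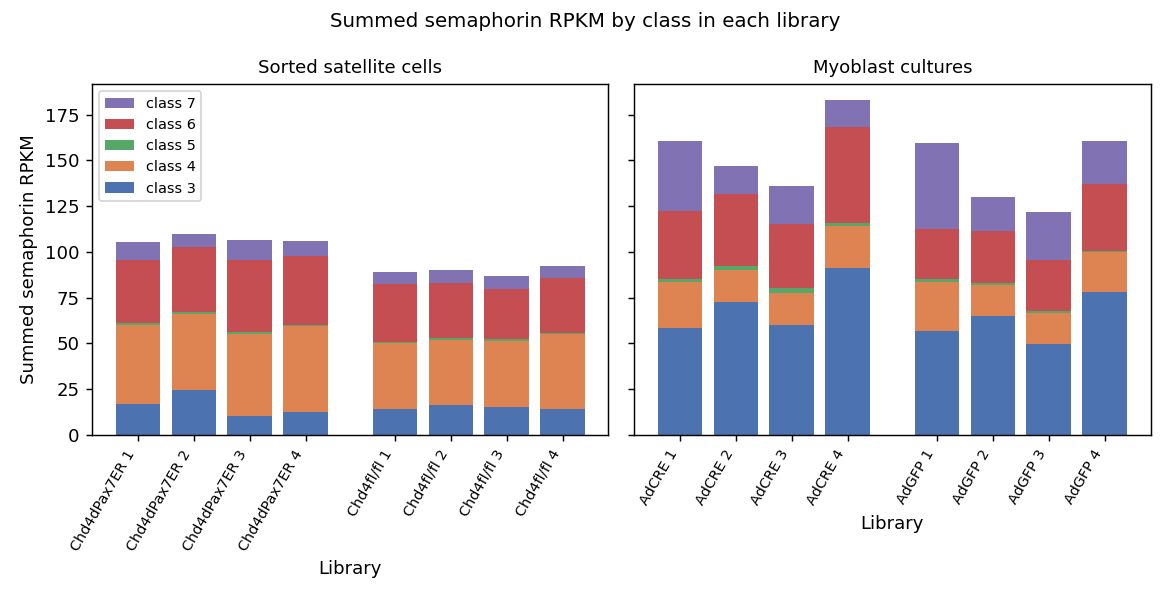
Summed RPKM of the 20 semaphorins in each of the 16 libraries, stacked by class, with sorted cells on the left and cultures on the right (vertical axis from 0, numbers are replicates). The sums were 106 to 110 RPKM in Chd4dPax7ER cells, above the 86.7 to 92.3 RPKM in Chd4fl/fl cells, and 136 to 183 RPKM in AdCRE cultures, overlapping the 122 to 161 RPKM in AdGFP cultures.

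The same receptors led in both settings. Plxnb2 and Plxna1 were the leading plexins in each of the 4 groups, their ranges overlapping in all of them. Together they held 67.7 to 72.7% of the summed plexin RPKM in Chd4dPax7ER cells, 63.4 to 69.8% in Chd4fl/fl cells, 75.4 to 79.8% in AdCRE cultures and 77.4 to 81.2% in AdGFP cultures. Nrp1 stood above Nrp2 in every library. Nrp1 averaged 57.6 ± 5.83 RPKM in Chd4dPax7ER and 52.9 ± 4.97 RPKM in Chd4fl/fl cells, and 13.5 ± 2.68 RPKM in AdCRE and 13.6 ± 3.34 RPKM in AdGFP cultures.

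In the sorted cells, most plexins and several membrane semaphorins were higher in Chd4dPax7ER cells, while Nrp2 and Sema3e were lower. With limma on log2(RPKM + 0.5) and Benjamini-Hochberg adjustment over 13344 genes, 12 members were higher and 2 lower in Chd4dPax7ER than in Chd4fl/fl cells at an adjusted p under 0.05, and 13 did not pass. Over all genes tested, 14.7% passed as higher and 11.9% as lower, 26.6% in all. The median log2 fold change of the tested members was 0.42, against -0.017 for all genes. The groups of 4 did not overlap for 15 members that were higher and 2 that were lower, as for 16% and 14.3% of all genes (30.3% in all). By role, 6 of 17 tested semaphorins rose and 1 fell, 6 of 8 plexins rose, and of the neuropilins Nrp2 fell while Nrp1 did not pass. Plxna4 met the filter only through the Chd4dPax7ER libraries, and without it 11 of 26 members and 5 of 7 plexins rose. Sema6c, kept in the 11, had Chd4fl/fl libraries on both sides of the filter. In bulk libraries, a different number of cells of one type and a different amount of RNA per cell cannot be told apart.

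**Figure D2:**
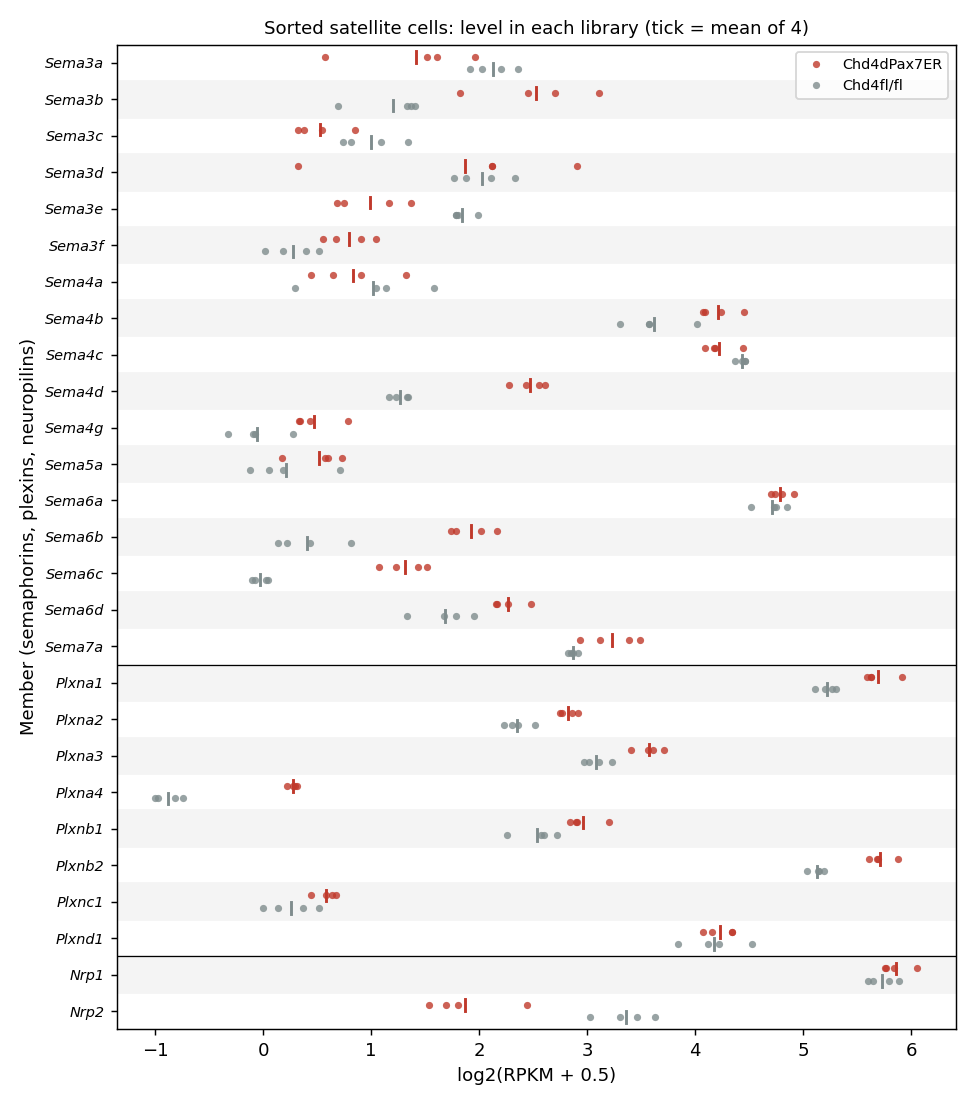
Level of the 27 tested members in each sorted-cell library as log2(RPKM + 0.5), with Chd4dPax7ER points above Chd4fl/fl points for each gene and a tick at each group's mean of 4. The Chd4dPax7ER points of Sema4d, Sema6b, Sema6c, Plxna4 and Plxnb2 all lie to the right of the Chd4fl/fl points, those of Nrp2 and Sema3e all lie to the left, and those of Sema6a, Plxnd1 and Nrp1 are mixed.

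The upstream DNA of the members that changed most was of different kinds, and it is shown here for the 3 largest rises and both falls among genes with an entry in the RefSeq promoter table (GRCm38.p6). Windows were found for 26 of the 31 members. Sema3b, Sema3f, Sema6a, Plxna1 and Plxna4 had none. Each line gives the 250 bases before the start, or before the most upstream of several listed starts, read 5′ to 3′ on the strand of the gene, with every CG dinucleotide in capitals. The windows are chr17:56140344-56140593 on the minus strand for Sema6b, chr3:95160170-95160419 on the plus strand for Sema6c, chr13:51756684-51756933 on the minus strand for Sema4d, chr1:62703067-62703316 on the plus strand for Nrp2 and chr5:14025026-14025275 on the plus strand for Sema3e. The Sema4d window lies inside the annotated gene, which spans bases 51685529 to 51793678.
Sema6b: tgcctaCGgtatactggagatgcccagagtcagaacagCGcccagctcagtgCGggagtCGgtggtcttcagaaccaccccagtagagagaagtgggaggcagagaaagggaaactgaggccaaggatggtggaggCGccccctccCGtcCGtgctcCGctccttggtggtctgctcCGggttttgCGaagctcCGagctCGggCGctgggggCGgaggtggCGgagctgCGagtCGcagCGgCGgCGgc
Sema6c: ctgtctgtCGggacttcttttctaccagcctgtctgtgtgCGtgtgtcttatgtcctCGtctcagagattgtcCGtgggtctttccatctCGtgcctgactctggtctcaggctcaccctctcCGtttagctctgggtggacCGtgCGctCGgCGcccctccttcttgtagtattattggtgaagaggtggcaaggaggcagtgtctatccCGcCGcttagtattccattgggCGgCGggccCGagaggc
Sema4d: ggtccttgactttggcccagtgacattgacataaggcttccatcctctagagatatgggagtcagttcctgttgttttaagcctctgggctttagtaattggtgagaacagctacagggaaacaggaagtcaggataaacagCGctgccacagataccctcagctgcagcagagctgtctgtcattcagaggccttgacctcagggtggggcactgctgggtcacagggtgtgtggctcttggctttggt
Nrp2: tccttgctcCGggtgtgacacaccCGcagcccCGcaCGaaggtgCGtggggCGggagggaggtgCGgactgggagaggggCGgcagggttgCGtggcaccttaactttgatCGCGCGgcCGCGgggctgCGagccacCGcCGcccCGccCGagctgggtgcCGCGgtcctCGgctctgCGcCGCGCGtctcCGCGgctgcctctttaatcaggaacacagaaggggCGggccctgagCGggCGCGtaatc
Sema3e: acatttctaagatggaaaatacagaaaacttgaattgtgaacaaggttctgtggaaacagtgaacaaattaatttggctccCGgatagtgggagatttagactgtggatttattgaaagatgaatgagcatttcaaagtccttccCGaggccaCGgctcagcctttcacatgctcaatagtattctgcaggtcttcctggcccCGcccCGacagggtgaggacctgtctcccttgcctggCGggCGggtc
The Nrp2 window held 32 CG dinucleotides, Sema6b 20, Sema6c 15, Sema3e 7 and Sema4d 1, where the median over all 32851 windows of the same length was 6. The set of all windows holds several starts for some genes, while each member is represented by its most upstream start alone. At least 15 were found in 15 of the 26 member windows and in 27.3% of all windows. The E-box letters CANNTG, read the same on both strands and bound by myogenic factors, occurred once in the Sema4d and once in the Sema3e window, in 13 of 26 member windows and in 66.2% of all windows. The Sema4d match was CAGCTG, a special case of CANNTG that 5 member windows and 13% of all windows held. These are matches of letters only and say nothing of binding.

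The class 3 semaphorins, the secreted ligands, moved in both directions. Sema3b, a secreted ligand that acts through neuropilins, was at 6.02, 8.16, 4.98 and 3.04 RPKM in Chd4dPax7ER replicates 1 to 4 and at 1.12, 2.15, 2.02 and 2.09 RPKM in Chd4fl/fl replicates. All Chd4dPax7ER libraries lay above all Chd4fl/fl libraries, and the widest spread was within the Chd4dPax7ER group. Sema3b rose by a log2 fold change of 1.32 (SE 0.28, adjusted p = 0.00843). Sema3e, which differs from its class in binding plexin-D1 without a neuropilin, was at 1.74, 2.08, 1.11 and 1.18 RPKM in Chd4dPax7ER cells and at 2.99, 3.46, 2.96 and 2.95 RPKM in Chd4fl/fl cells. The groups did not overlap, and Sema3e fell by 0.85 on the log2 scale (SE 0.18, adjusted p = 0.00971). Its receptor Plxnd1 averaged 18.3 ± 1.78 RPKM in Chd4dPax7ER and 17.9 ± 3.62 RPKM in Chd4fl/fl cells (adjusted p = 0.814).

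Sema3a, the founding repulsive ligand of the class, was at 2.55, 3.40, 0.99 and 2.36 RPKM in Chd4dPax7ER cells and at 4.63, 3.27, 4.09 and 3.58 RPKM in Chd4fl/fl cells. The groups overlapped by 1 library, and the log2 difference of -0.71 did not pass (adjusted p = 0.0863), though it did without Chd4dPax7ER replicate 2 (adjusted p = 0.0458). Sema3c averaged 0.955 ± 0.253 RPKM in Chd4dPax7ER and 1.52 ± 0.397 RPKM in Chd4fl/fl cells (adjusted p = 0.124). Sema3d varied most among Chd4dPax7ER libraries, between 0.75 and 6.99 RPKM, against 2.90 to 4.53 RPKM in Chd4fl/fl cells (adjusted p = 0.832). Sema3f averaged 1.25 ± 0.265 RPKM in Chd4dPax7ER and 0.725 ± 0.187 RPKM in Chd4fl/fl cells, with no overlap (adjusted p = 0.0862).

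By position, Sema3d, Sema3a, Sema3e and Sema3c lie in this order on chromosome 5 (GRCm38.p6), from base 12383161 at the start of Sema3d to base 17730268 at the end of Sema3c. Their log2 differences in sorted cells were -0.16, -0.71, -0.85 and -0.47, of which that of Sema3e passed. Sema3b and Sema3f lie near each other on chromosome 9, at bases 107597674 to 107609241 and 107681499 to 107710475, with log2 differences of 1.32 and 0.51, of which that of Sema3b passed. In the cultures the 4 chromosome 5 genes did not share a sign.

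Among the class 4 semaphorins, membrane ligands of plexin-B receptors, Sema4d changed most. Sema4d, the ligand of plexin-B1, was at 4.92, 5.6, 4.36 and 5.38 RPKM in Chd4dPax7ER cells and at 2.03, 1.74, 1.84 and 2.02 RPKM in Chd4fl/fl cells. The lowest Chd4dPax7ER library was above the highest Chd4fl/fl library by more than either group's range. Sema4d rose by 1.21 (SE 0.13, adjusted p = 0.000346), a ratio of means of 2.66.

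Sema4b, a less studied member of the class, was at 18.4, 16.5, 16.3 and 21.4 RPKM in Chd4dPax7ER cells and at 11.4, 11.4, 9.36 and 15.7 RPKM in Chd4fl/fl cells. The groups did not overlap, but Chd4fl/fl replicate 4 came close to the Chd4dPax7ER range. Sema4b rose by 0.59 (SE 0.15, adjusted p = 0.0206), and the call was lost without Chd4dPax7ER replicate 4 (adjusted p = 0.0523) or without Chd4fl/fl replicate 2 (adjusted p = 0.0521). Sema4c, which binds plexin-B2 and is known from mouse myoblast lines to rise during differentiation, averaged 18.3 ± 2.1 RPKM in Chd4dPax7ER and 21.1 ± 0.682 RPKM in Chd4fl/fl cells and did not pass (adjusted p = 0.115), though it did without Chd4dPax7ER replicate 3 (adjusted p = 0.0273, log2 difference -0.28). Sema4a averaged 1.33 ± 0.497 RPKM in Chd4dPax7ER and 1.62 ± 0.725 RPKM in Chd4fl/fl cells (adjusted p = 0.682). Sema4g averaged 0.900 ± 0.217 RPKM in Chd4dPax7ER and 0.475 ± 0.171 RPKM in Chd4fl/fl cells (adjusted p = 0.0977).

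Of the 4 class 6 semaphorins, membrane ligands of plexin-A receptors, 3 rose. Sema6b was at 2.94, 3.55, 2.84 and 3.99 RPKM in Chd4dPax7ER cells and at 0.67, 0.60, 1.26 and 0.85 RPKM in Chd4fl/fl cells. The lowest Chd4dPax7ER library held more than the highest Chd4fl/fl library by over 1 RPKM. Sema6b rose by 1.52 (SE 0.20, adjusted p = 0.000883), a ratio of means of 3.94. With the offset of 0.5 RPKM, which understates the change of low genes, this was the largest log2 fold change among the tested members in sorted cells, though the ratio of means was larger for Sema6c and Plxna4.

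Sema6c was at 1.61, 2.21, 1.85 and 2.37 RPKM in Chd4dPax7ER cells and at 0.53, 0.43, 0.45 and 0.52 RPKM in Chd4fl/fl cells. Again no library of one group reached the other, and the Chd4fl/fl values were tightly grouped. They sat at the filter of 0.5 RPKM, with replicates 2 and 3 below it, so Sema6c was tested largely through the Chd4dPax7ER libraries. Sema6c rose by 1.34 (SE 0.17, adjusted p = 0.000883), a ratio of means of 4.17. Sema6d, a plexin-A1 ligand, was at 4.00, 4.31, 5.09 and 3.95 RPKM in Chd4dPax7ER cells and at 2.02, 2.95, 3.36 and 2.70 RPKM in Chd4fl/fl cells. The groups did not overlap, and Sema6d rose by 0.58 (SE 0.16, adjusted p = 0.0269). That call was lost without Chd4dPax7ER replicate 2 (adjusted p = 0.0555) or 3 (adjusted p = 0.0660), and without Chd4fl/fl replicate 1 (adjusted p = 0.0583) or 4 (adjusted p = 0.0576). It was also lost with no filter on low values (adjusted p = 0.053). Sema6a, the most abundant semaphorin here, did not pass (log2 difference 0.08, adjusted p = 0.526).

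Sema5a, a membrane ligand with thrombospondin repeats, averaged 0.950 ± 0.226 RPKM in Chd4dPax7ER and 0.685 ± 0.316 RPKM in Chd4fl/fl cells (adjusted p = 0.363). Sema7a, the lipid-anchored ligand of plexin-C1 and integrins, averaged 8.99 ± 1.62 RPKM in Chd4dPax7ER and 6.80 ± 0.202 RPKM in Chd4fl/fl cells. The Sema7a groups did not overlap, but its log2 difference of 0.36 did not pass (adjusted p = 0.0661). Without Chd4dPax7ER replicate 2 it did (adjusted p = 0.0226).

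The plexin-A genes, whose products are the signalling partners of neuropilins and the receptors of class 6 semaphorins, were higher in Chd4dPax7ER cells, with Plxna1, Plxna2 and Plxna3 above the filter in both groups and Plxna4 in Chd4dPax7ER cells alone. Plxna1 was at 47.6, 48.9, 48.9 and 59.8 RPKM in Chd4dPax7ER cells and at 37.9, 39.0, 34.1 and 36.4 RPKM in Chd4fl/fl cells. The groups were apart, and Chd4dPax7ER replicate 4 stood above its 3 companions. Plxna1 rose by 0.47 (SE 0.09, adjusted p = 0.00444).

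Plxna2, a receptor of Sema6a, was at 6.74, 6.22, 7.03 and 6.30 RPKM in Chd4dPax7ER cells and at 4.19, 4.43, 5.22 and 4.63 RPKM in Chd4fl/fl cells. It rose by 0.47 (SE 0.11, adjusted p = 0.0119), with no overlap. Plxna3, the partner of neuropilin-2, was at 10.1, 11.3, 11.7 and 12.6 RPKM in Chd4dPax7ER cells and at 8.89, 8.11, 7.60 and 7.33 RPKM in Chd4fl/fl cells. It rose by 0.49 (SE 0.10, adjusted p = 0.0072), also with no overlap. Plxna4, a receptor of Sema3a and Sema6 ligands in neurons, was at 0.71, 0.73, 0.67 and 0.74 RPKM in Chd4dPax7ER cells, while the Chd4fl/fl libraries listed 0.01, 0.07, 0 and 0.10 RPKM. It rose by 1.16 (SE 0.20, adjusted p = 0.00316), but it entered the test only because the Chd4dPax7ER libraries reached 0.5 RPKM, so a difference was a condition of its being tested.

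Both plexin-B genes that could be tested rose. Plxnb2, a receptor of Sema4c and Sema4d, was at 48.4, 51.1, 50.9 and 58.2 RPKM in Chd4dPax7ER cells and at 36.0, 32.2, 35.0 and 34.6 RPKM in Chd4fl/fl cells. The gap between the groups was wider than the range of the Chd4dPax7ER libraries. Plxnb2 rose by 0.59 (SE 0.07, adjusted p = 0.000776). Plxnb1, the receptor of Sema4d, was at 7.02, 6.65, 8.68 and 6.95 RPKM in Chd4dPax7ER cells and at 4.28, 6.09, 5.44 and 5.55 RPKM in Chd4fl/fl cells. It rose by 0.42 (SE 0.13, adjusted p = 0.0431), a call that remained only when Chd4fl/fl replicate 2 was left out and was lost without any other single library (highest adjusted p = 0.099, without Chd4dPax7ER replicate 3), and with no filter on low values (adjusted p = 0.0687), after TPM scaling (adjusted p = 0.0649) or after quantile normalisation (adjusted p = 0.0514). Plxnc1, the receptor of Sema7a, averaged 1.01 ± 0.105 RPKM in Chd4dPax7ER and 0.705 ± 0.192 RPKM in Chd4fl/fl cells (adjusted p = 0.225).

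Of the neuropilins, Nrp2 fell and Nrp1 did not pass. Nrp2, which binds Sema3f and VEGF-C, was at 4.94, 2.99, 2.40 and 2.74 RPKM in Chd4dPax7ER cells and at 10.5, 9.38, 7.66 and 11.9 RPKM in Chd4fl/fl cells. Every Chd4dPax7ER library lay below every Chd4fl/fl library, with replicate 1 the highest of its group. Nrp2 fell by 1.49 on the log2 scale (SE 0.21, adjusted p = 0.00135) and passed without each library in turn. Its share of the neuropilin RPKM was 3.98 to 8.40% in Chd4dPax7ER cells and 11.5 to 19.9% in Chd4fl/fl cells. Nrp1, the receptor of Sema3a and a VEGF co-receptor, did not pass (log2 difference 0.12, adjusted p = 0.359).

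**Figure D3:**
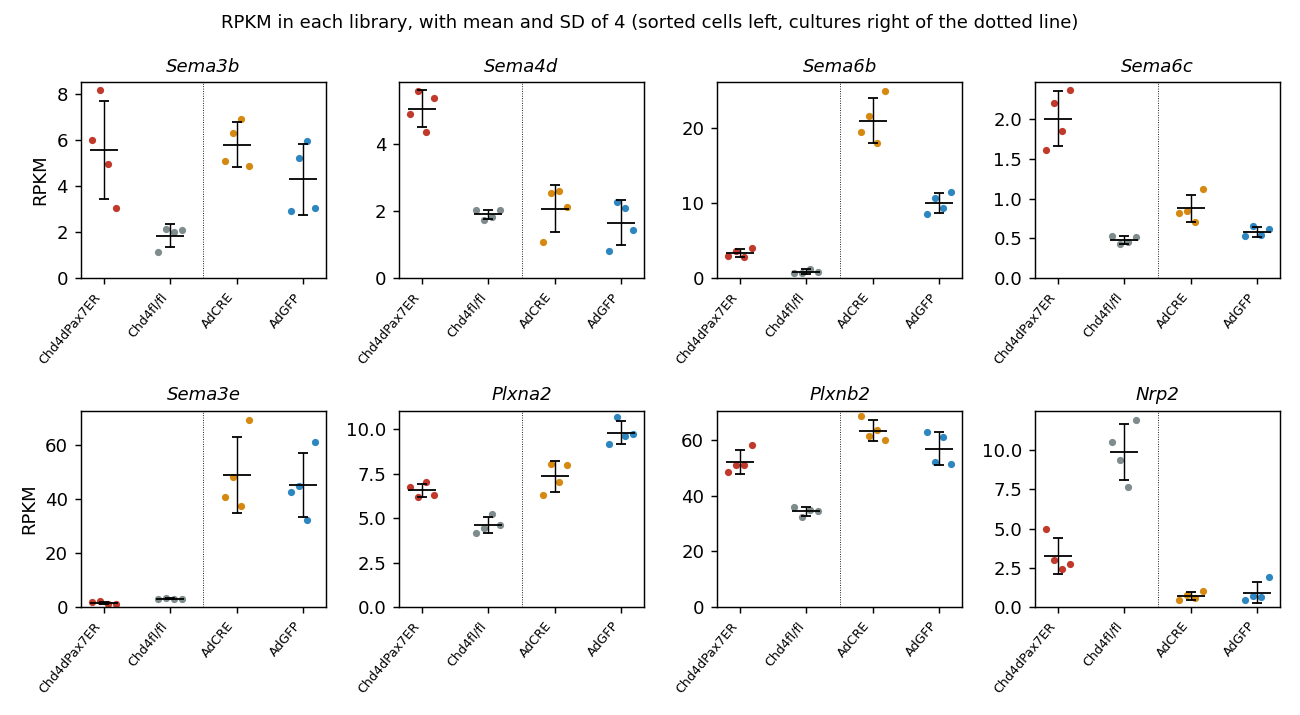
RPKM of 8 members in each library (points), with the mean and SD of each group of 4 (black), each panel with its own axis from 0 and with sorted cells left and cultures right of the dotted line. Sema6b was higher in Chd4dPax7ER than in Chd4fl/fl cells and in AdCRE than in AdGFP cultures, while Plxna2 was higher in Chd4dPax7ER cells (6.57 against 4.62 RPKM) and had the lower mean in AdCRE cultures (7.35 against 9.83 RPKM).

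Myofibre markers and markers of several other cell types were higher in Chd4dPax7ER cells. The myofibre markers are genes of the muscle lineage itself, and they summed to 891 to 3590 RPKM in the AdGFP myoblast cultures too. The counts below stand beside the 14.7% of all genes that passed as higher. The 8 myofibre markers all rose, and their summed level was 897 to 2510 RPKM in Chd4dPax7ER cells, the highest in replicate 2, against 282 to 592 RPKM in Chd4fl/fl cells. Among the 27 tested members, those with replicate 2 as their highest Chd4dPax7ER library included Sema3a, Sema3b, Sema3c, Sema3d, Sema3e, Sema4d, Sema4g, Sema5a and Plxnc1. Of these, Sema3b and Sema4d passed as higher in Chd4dPax7ER cells and Sema3e as lower, while Sema3a and Sema3c had lower means there without passing. The share of all genes highest in that library was not counted. Any link between this order and the marker sums was not tested. Of the fibro-adipogenic progenitor markers 3 of 7 tested rose, summing to 209 to 354 RPKM in Chd4dPax7ER and 83.9 to 110 RPKM in Chd4fl/fl cells. Schwann and glia markers, of which 4 of 8 rose (S100b and Sox10 tested only through the Chd4dPax7ER libraries), summed to 56.2 to 114 RPKM in Chd4dPax7ER and 49.2 to 58.0 RPKM in Chd4fl/fl cells. Pericyte markers, of which 3 of 5 rose, summed to 25.5 to 51.3 RPKM in Chd4dPax7ER and 17.6 to 27.4 RPKM in Chd4fl/fl cells. Neuron markers summed to 12.8 to 21.1 RPKM in Chd4dPax7ER and 3.86 to 9.27 RPKM in Chd4fl/fl cells. Of the 6 listed only 2 were tested, Tubb3 and Elavl3, and both rose (Elavl3 tested only through the Chd4dPax7ER libraries). In every Chd4dPax7ER library 2 of the 6 were listed at 0. Of these, Syt1 was at 0 in every Chd4fl/fl library too, while the other was not. Endothelial markers, with 1 of 3 tested rising, summed to 9.48 to 15.4 RPKM in Chd4dPax7ER and 4.36 to 8.09 RPKM in Chd4fl/fl cells. Macrophage and leukocyte markers, with 1 of 9 rising (11.1%, below the share of all genes), summed to 89.0 to 192 RPKM in Chd4dPax7ER and 71.7 to 141 RPKM in Chd4fl/fl cells. The part of such cells, or of differentiation of the sorted cells, in the values of the family was not tested. Without Chd4dPax7ER replicate 2, 11 members passed as higher and 3 as lower.

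Among further genes of the pathway, changes in sorted cells were split. Of 9 tested co-receptors 1 rose and 1 fell (22.2%, below the 26.6% of all genes). Ptk7, a pseudokinase whose frog and fly relatives associate with plexins, was at 26.3 ± 2.21 RPKM in Chd4dPax7ER and 8.48 ± 0.938 RPKM in Chd4fl/fl cells (log2 fold change 1.58, adjusted p = 2.87e-05). Met, the HGF receptor and a partner of plexin-B1, was at 40.6 ± 8.36 RPKM in Chd4dPax7ER and 74.5 ± 4.79 RPKM in Chd4fl/fl cells (log2 fold change -0.89, adjusted p = 0.00273). Of 33 cytoplasmic effectors 8 rose and 4 fell (36.4%, beside 26.6% of all genes). The largest rises were those of the small GTPase Rhod (21.1 ± 5.31 against 5.32 ± 2.44 RPKM in Chd4dPax7ER and Chd4fl/fl cells), the collapsin response mediator genes Dpysl3 (23.3 ± 4.18 against 8.22 ± 1.05 RPKM) and Crmp1 (0.798 ± 0.242 against 0.0375 ± 0.0624 RPKM, tested only through the Chd4dPax7ER libraries), and the plexin-linked exchange factor Farp1 (14.3 ± 1.57 against 6.99 ± 1.10 RPKM). None of 5 VEGF ligand genes passed. Of 7 proteases Mmp14, a protease known to cleave Sema4d in human tumour cells, rose to 32.1 ± 4.59 RPKM in Chd4dPax7ER cells, against 13.8 ± 2.52 RPKM in Chd4fl/fl cells (log2 fold change 1.19, adjusted p = 0.000883). Mmp14 makes up 14.3% of the tested proteases, near the 14.7% of all genes that passed as higher. Of 4 tested genes tied to Sema3a signalling in cultured satellite cells, 3 rose: the slow troponin Tnnt1 (log2 fold change 2.23), the differentiation factor Myog (0.96) and Mef2d (0.30), beside 14.7% of all genes. The fourth, the slow-type myosin-binding protein gene Mybpc1, did not pass and had the lower mean in Chd4dPax7ER cells (9.72 ± 5.46 RPKM, against 19.2 ± 6.04 RPKM in Chd4fl/fl cells, log2 difference -1.15, adjusted p = 0.114), and Sema3a itself did not pass.

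In the cultures, Sema6b was higher after AdCRE, and it was the one member to pass when pairing was left aside. Among 13567 genes 0.656% passed, and 1 of the 24 tested members did. Sema6b was at 19.4, 21.5, 18 and 24.8 RPKM in AdCRE replicates 1 to 4 and at 8.52, 10.6, 9.35 and 11.5 RPKM in AdGFP replicates. Each AdCRE culture was well above each AdGFP culture. Sema6b rose by 1.03 (SE 0.12, limma adjusted p = 0.0168), a ratio of means of 2.09. That call was lost without AdCRE replicate 2 or AdGFP replicate 2 or 3 (highest adjusted p = 0.0772).

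Same-numbered cultures deviated together across genes, so the number pairs them, and a second fit that takes each pair as a block is given beside the first. With the block 36.2% of all genes passed, 17.5% as higher and 18.7% as lower, and 12 members were higher and 4 lower in AdCRE than in AdGFP cultures (11 of 23 higher without Sema4g, which met the filter only through the AdCRE libraries). Sema6b then had an adjusted p of 0.000118. The same 16 members had one direction in all 4 pairs, which 25.1% of all genes did as higher, 27.1% as lower and 52.2% in all. The groups of 4 did not overlap for 5 members that were higher and 1 that was lower, against 3.8% and 6.21% of all genes (10% in all). Of the 12 higher members, 8, 9, 9 and 6 still passed without pairs 1, 2, 3 and 4, and Sema3e passed as well without pair 1. Sema6b, Sema6a, Sema3d, Plxna3 and Plxnd1, 5 in all, passed without each pair in turn, and the 4 lower members did so too. The median log2 fold change was 0.14 over the tested members and -0.006 over all genes.

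**Figure D4:**
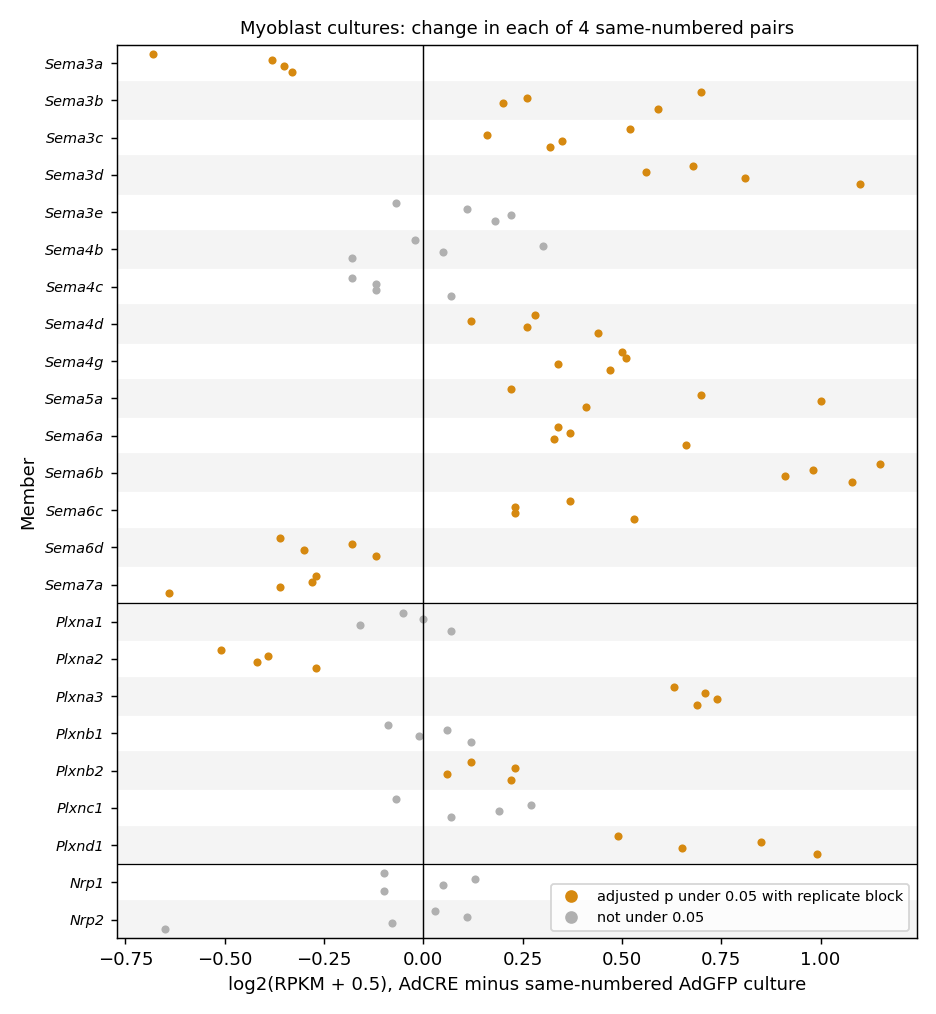
Change of the 24 tested members in each of the 4 same-numbered culture pairs, as the log2(RPKM + 0.5) of the AdCRE minus that of the AdGFP culture (4 points per gene, pair 1 at the top). Sema6b lies between 0.91 and 1.15 and Plxna3 between 0.63 and 0.74 in all pairs, Plxna2 and Sema3a lie below 0 in all pairs, and Plxna1, Plxnb1 and Nrp1 scatter around 0.

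Among the secreted ligands, Sema3d was at 8.02, 11.6, 10.1 and 8.09 RPKM in AdCRE and at 4.83, 7.73, 5.53 and 3.52 RPKM in AdGFP cultures. All AdCRE values lay above all AdGFP values, and Sema3d rose by 0.79 with the block (adjusted p = 0.00102; 0.156 without it). Sema3b was at 5.08, 6.32, 6.93 and 4.87 RPKM in AdCRE and at 2.93, 5.21, 5.96 and 3.05 RPKM in AdGFP cultures. The groups overlapped although each pair was higher in AdCRE, and Sema3b rose by 0.44 with the block (adjusted p = 0.0111; 0.405 without it), a call lost without pair 4 (adjusted p = 0.0506). Sema3c, a ligand known from outflow tract development, was at 1.39, 1.38, 1.49 and 0.879 RPKM in AdCRE and at 0.817, 1.19, 1.06 and 0.607 RPKM in AdGFP cultures (log2 fold change 0.34, adjusted p = 0.0281 with the block and 0.409 without it). The blocked call of Sema3c was lost without pair 1, 3 or 4 (highest adjusted p = 0.0972).

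Sema3a was at 3.22, 4.30, 3.29 and 7.59 RPKM in AdCRE and at 5.45, 5.73, 4.35 and 9.68 RPKM in AdGFP cultures. Replicate 4 was the highest in both groups, and each pair was lower in AdCRE. Sema3a fell by 0.43 with the block (adjusted p = 0.00411; 0.541 without it). Sema3e, the ligand with the highest mean in the cultures, was at 37.5 to 69.0 RPKM in AdCRE and 32.2 to 61.0 RPKM in AdGFP cultures and passed in neither fit (adjusted p = 0.163 with the block and 0.879 without it).

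Of the membrane ligands of class 4, Sema4d was at 1.07, 2.53, 2.59 and 2.11 RPKM in AdCRE and at 0.797, 2.28, 2.08 and 1.43 RPKM in AdGFP cultures (log2 fold change 0.28, adjusted p = 0.0323 with the block and 0.726 without it). The blocked call of Sema4d was likewise lost without pair 1, 3 or 4 (highest adjusted p = 0.131). Sema4g was at 0.568, 0.635, 0.570 and 0.789 RPKM in AdCRE and at 0.254, 0.295, 0.346 and 0.429 RPKM in AdGFP cultures (log2 fold change 0.46, adjusted p = 0.013 with the block and 0.156 without it). It was tested only through the AdCRE libraries, so a difference was a condition of its being tested, and its call was lost without pair 4 (adjusted p = 0.055). Sema4b averaged 2.87 ± 0.174 RPKM in AdCRE and 2.81 ± 0.364 RPKM in AdGFP cultures, and Sema4c 14.7 ± 4.57 and 15.6 ± 5.07 RPKM in the same groups, and neither passed.

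In the cultures, with the block, 3 class 6 members rose (Sema6b among them) and 1 fell. Sema6a was at 6.65, 6.75, 5.90 and 9.09 RPKM in AdCRE and at 5.14, 5.11, 4.59 and 5.56 RPKM in AdGFP cultures (log2 fold change 0.43, adjusted p = 0.00392 with the block and 0.189 without it). Sema6c was at 0.824, 0.851, 0.711 and 1.12 RPKM in AdCRE and at 0.527, 0.655, 0.536 and 0.621 RPKM in AdGFP cultures (log2 fold change 0.34, adjusted p = 0.0362 with the block and 0.262 without it). Neither gene's groups overlapped, but the blocked call of Sema6c was lost without any 1 of the 4 pairs (highest adjusted p = 0.147). Sema6d was at 10.3, 10.6, 10.7 and 17.6 RPKM in AdCRE and at 13.3, 12, 13.3 and 19.2 RPKM in AdGFP cultures, with replicate 4 high in both groups. It fell by 0.24 with the block (adjusted p = 0.0122; 0.628 without it).

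Sema5a was at 1.69, 1.89, 2.57 and 1.17 RPKM in AdCRE and at 1.38, 0.973, 1.04 and 0.751 RPKM in AdGFP cultures (log2 fold change 0.58, adjusted p = 0.0142 with the block and 0.238 without it), a call lost without pair 2 (adjusted p = 0.0511). Sema7a was at 38.6, 15.2, 20.4 and 14.7 RPKM in AdCRE and at 46.7, 18.5, 26.4 and 23.2 RPKM in AdGFP cultures. Replicate 1 was far above the others in both groups, and the AdCRE culture was the lower one of each pair. Sema7a fell by 0.39 with the block (adjusted p = 0.00499; 0.667 without it).

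On the receptor side of the cultures, Plxna3 was at 8.66, 10.2, 10.3 and 15.0 RPKM in AdCRE and at 5.43, 6.04, 5.95 and 9.14 RPKM in AdGFP cultures. The 4 pairs changed by nearly the same amount, and Plxna3 rose by 0.69 with the block (adjusted p = 0.000232; 0.168 without it). Plxna2 was at 6.29, 8.05, 7.04 and 8.02 RPKM in AdCRE and at 9.19, 10.7, 9.62 and 9.77 RPKM in AdGFP cultures. Every AdCRE value lay below every AdGFP value, and Plxna2 fell by 0.40 with the block (adjusted p = 0.002; 0.12 without it). Plxna1 averaged 52.9 ± 12.2 RPKM in AdCRE and 54.0 ± 10.5 RPKM in AdGFP cultures and did not pass (adjusted p = 0.59 with the block).

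Plxnd1, the Sema3e receptor, was at 12.2, 8.05, 7.89 and 10.5 RPKM in AdCRE and at 8.58, 4.23, 4.84 and 5.02 RPKM in AdGFP cultures. AdGFP replicate 1 alone reached into the AdCRE range. Plxnd1 rose by 0.75 with the block (adjusted p = 0.00107; 0.182 without it). Plxnb2 was at 68.5, 61.4, 63.6 and 59.8 RPKM in AdCRE and at 62.9, 52.2, 61.2 and 51.3 RPKM in AdGFP cultures, a small rise of 0.16 with the block (adjusted p = 0.029; 0.437 without it). That call was lost without pair 1, 2 or 4 (highest adjusted p = 0.11). Plxnb1 averaged 5.66 ± 1.45 RPKM in AdCRE and 5.53 ± 1.16 RPKM in AdGFP cultures, and Plxnc1 0.529 ± 0.334 and 0.436 ± 0.231 RPKM in the same groups, and neither passed. Nrp2 was at 0.427 to 1.02 RPKM in AdCRE and 0.411 to 1.89 RPKM in AdGFP cultures (adjusted p = 0.452 with the block), and Nrp1 did not pass (adjusted p = 0.941 with the block).

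Myofibre markers and markers of other cell types also differed between the cultures. Their counts stand beside the 17.5% of all genes that passed as higher with the block and the 18.7% that passed as lower. Pericyte markers summed to 207 to 468 RPKM in AdCRE and 64.4 to 135 RPKM in AdGFP cultures, with 3 of 4 tested rising with the block and 1 without it. Macrophage and leukocyte markers summed to 19.0 to 29.1 RPKM in AdCRE and 7.08 to 12.2 RPKM in AdGFP cultures, with 2 of 3 tested rising with the block and Adgre1 listed at 0 in every library. Myofibre markers summed to 1150 to 4410 RPKM in AdCRE and 891 to 3590 RPKM in AdGFP cultures, with 7 of 8 rising with the block. Neuron markers summed to 12.5 to 26.1 RPKM in AdCRE and 6.38 to 15.1 RPKM in AdGFP cultures, with 2 of 3 tested rising with the block. Endothelial markers summed to 3.15 to 4.59 RPKM in AdCRE and 2.1 to 2.59 RPKM in AdGFP cultures, with 2 of 3 tested rising with the block and Emcn and Tie1 listed at 0. Schwann and glia markers summed to 7.91 to 24.1 RPKM in AdCRE and 6.69 to 20.2 RPKM in AdGFP cultures, with 2 of 3 tested rising with the block and Cdh19 at 0. Fibro-adipogenic markers summed to 44.6 to 94.4 RPKM in AdCRE and 44.5 to 94.9 RPKM in AdGFP cultures, with 1 of 2 tested rising and 1 falling with the block and Dpt and Mfap5 at 0. Of 8 tested satellite cell and myoblast markers, none rose and 2 fell with the block. The part of any of these cell types, or of differentiation of the myoblasts, in the changes of the family was not tested.

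Of the other pathway genes in the cultures, none passed without the block. With it, 7 of 31 effectors rose and 5 fell, a share of 38.7% that is close to the 36.2% of all genes. The largest of these changes were falls of the kinase Pak1 (67.1 ± 10.8 RPKM in AdCRE and 96.0 ± 20.1 RPKM in AdGFP cultures, log2 fold change -0.50, adjusted p = 0.000438) and of Dpysl2 (3.54 ± 1.01 and 5.04 ± 1.12 RPKM, log2 fold change -0.47, adjusted p = 0.00745). Of 6 co-receptors Ptk7 and Nrcam rose and Met fell with the block (50.0%, beside 36.2% of all genes), Ptk7 by 0.32 (adjusted p = 0.00239), the adhesion molecule Nrcam by 0.29 (adjusted p = 0.0181) and Met by a log2 fold change of -0.42 (adjusted p = 0.00214). Vegfc, a neuropilin-2 ligand, fell among 4 VEGF genes (log2 fold change -0.49, adjusted p = 0.00747), and the convertase Pcsk6 fell among 6 proteases (log2 fold change -0.55, adjusted p = 0.00881). These shares, 25.0% of the VEGF genes and 16.7% of the proteases, are below the 36.2% of all genes. Of 6 genes tied to Sema3a signalling, Myog and Tnnt1 rose with the block (log2 fold changes 0.46 and 0.69, adjusted p = 0.00698 and 0.0014). They make up 33.3% of that list, beside 17.5% of all genes that passed as higher.

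Whether a member changed by a different amount in sorted cells than in cultures was tested directly over 11941 genes that passed the filter in both settings, of which 4.12% passed. The 2 settings share no libraries. They also differed in the source of the cells, in the use of a virus and in the Chd4 left (44.9% of control in sorted cells and 27.7% in cultures). The parts of these in a difference cannot be told apart. Among 24 members, 3 passed. Plxna2 had a log2 fold change of 0.47 in sorted cells and -0.40 in cultures, a difference of 0.87 (SE 0.14, limma adjusted p = 0.00275). Sema6c had 1.34 in sorted cells and 0.34 in cultures, a difference of 1.01 (SE 0.20, adjusted p = 0.0107). Both passed without each of the 16 libraries in turn. Plxnb2 had 0.59 in sorted cells and 0.16 in cultures, a difference of 0.43 (SE 0.11, adjusted p = 0.0471), which was lost in 12 of those 16 fits.

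For Sema6b, called in both settings, the log2 fold changes of 1.52 in sorted cells and 1.03 in cultures differed by 0.49 (SE 0.22), which did not pass (adjusted p = 0.238). Nrp2, with -1.49 in sorted cells and -0.15 in cultures, did not pass either (difference -1.34, SE 0.39, adjusted p = 0.0622). With the replicate block in the model 10.8% of all genes and 10 members passed, among them Nrp2 (adjusted p = 0.0128), Sema3e (difference -0.96, adjusted p = 0.00875), Sema4d (0.93, adjusted p = 0.00315) and Plxnd1 (-0.70, adjusted p = 0.0348). Sema6d (0.82, adjusted p = 0.0121), Plxna1 (0.50, adjusted p = 0.0112) and Sema7a (0.75, adjusted p = 0.0105) passed with the block as well.

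**Figure D5:**
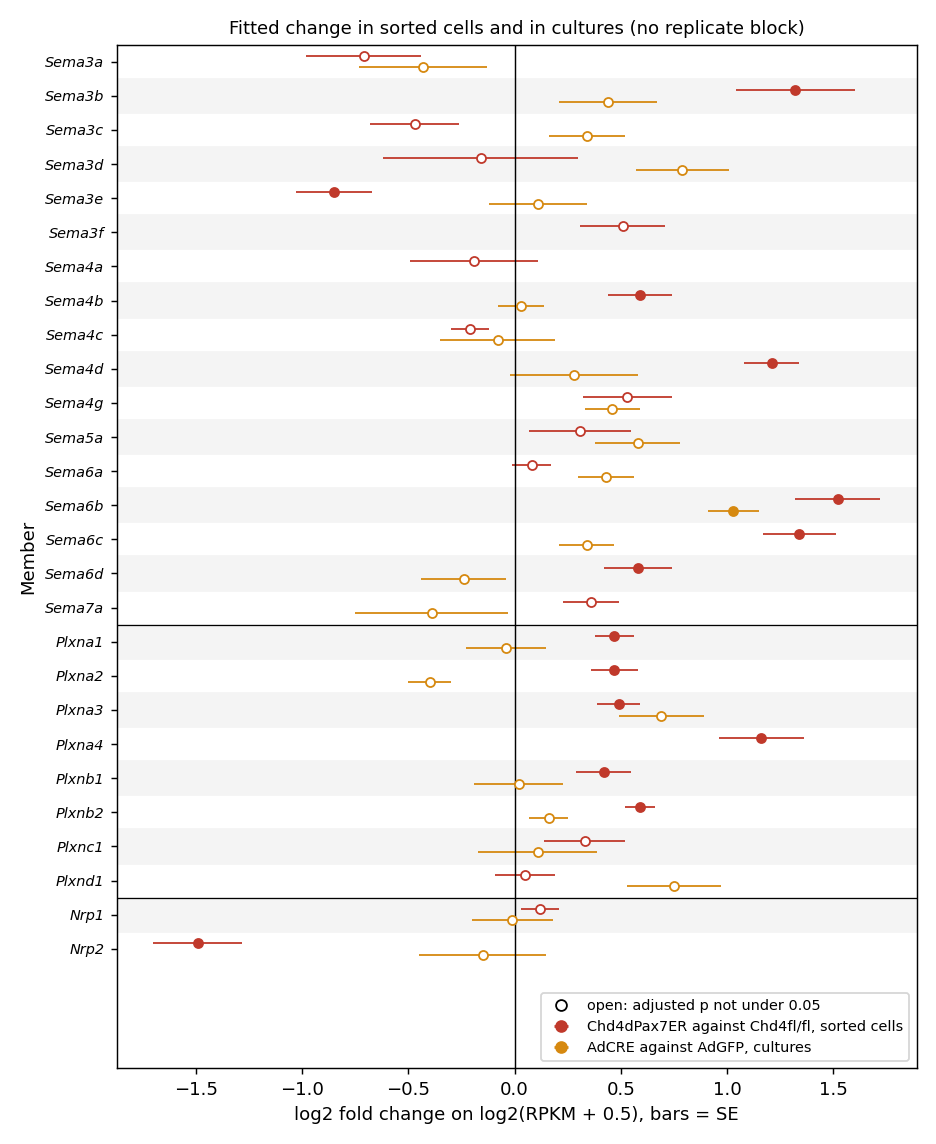
Fitted log2 fold change with its SE (bars) for each tested member, Chd4dPax7ER against Chd4fl/fl in sorted cells above AdCRE against AdGFP in cultures, filled where the adjusted p was under 0.05 without a replicate block. Sema6b is filled in both settings, Plxna2 lies on opposite sides of 0 (0.47 and -0.40), and Nrp2 lies at -1.49 in sorted cells and near 0 in cultures.

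Members below the filter had little signal. In sorted cells Plxnb3 was at 0.51, 1.40, 0.67 and 0.32 RPKM in Chd4dPax7ER and at 0.29, 0.02, 0.21 and 0.07 RPKM in Chd4fl/fl cells, without overlap but untested at this filter. Tested with no filter, its adjusted p was 0.0786. Sema3g was at 0.29 to 1.02 RPKM in Chd4dPax7ER and 0 to 0.21 RPKM in Chd4fl/fl cells, and Sema4f at 0.29 to 0.61 RPKM and 0.15 to 0.45 RPKM in the same groups. Sema5b was listed at 0 in all sorted-cell libraries but Chd4dPax7ER replicate 4 and in all cultures but AdGFP replicate 4. In the cultures Plxna4, Plxnb3, Sema3f, Sema3g, Sema4a and Sema4f were also below the filter, with means of 0.134 to 0.495 RPKM in AdCRE and 0.0803 to 0.446 RPKM in AdGFP cultures.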

How the data were processed

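The authors deposited 1 table of RPKM values per setting, for 46078 genes under Ensembl identifiers and symbols. The sorted-cell values are rounded to 2 decimals. The submitters' processing notes name HISAT2 2.1.0 and the builds mm10 and GRCm38, while the program that counted reads and the lengths used per gene are not stated in the sources used here. RPKM does not give the reads of a library. In the cultures, steps in low values put AdGFP replicate 4 at 1.64 times the reads of the shallowest library, AdGFP replicate 2, and the others at 1.08 to 1.29 times. RPKM sums were 286802 to 306114 per sorted-cell library and 288659 to 326812 per culture. The number of reads behind a low-level member is therefore unknown.

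Each table was fitted alone with limma 3.58.1 (R 4.3.3, trended variances) on log2(RPKM + 0.5), for genes with at least 0.5 RPKM in 4 of 8 libraries. This scale understates the change of low genes. p-values were adjusted by Benjamini-Hochberg over all genes tested, with a threshold of 0.05. The difference between settings was an interaction contrast over all 16 libraries. SE is limma's moderated standard error. The fit without the block was also run on simulated data. Those values were drawn independently for each library, so that run does not cover the blocked fit or the difference between settings. Same-numbered libraries deviated together in cultures (correlation 0.711 to 0.856) but not in sorted cells (-0.0967 to 0.0499), so the block by replicate number is printed beside the culture results. Differently numbered cultures gave -0.524 to 0.438, the highest for AdCRE replicate 2 with AdGFP replicate 3. AdCRE replicate 3 with AdGFP replicate 2 gave 0.39, so pairs 2 and 3 also resembled each other.

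Members called in either comparison, or in cultures with the block, were given in every library, and of each further list at most the 4 largest called changes were named. The symbol rule used no measured value, but the family and the lists were chosen with earlier results of these data known. Counts within the family and the lists are therefore descriptive. Alternatives changed the pseudocount, filter, scaling, variance trend, block and libraries. The 8 ATAC-seq samples were not analysed here.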

Additional observations from a re-analysis of the deposited data

Results flagged for a closer look

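The change in sorted cells differed from that in cultures for 3 members, by the test of the difference itself without the replicate block. They were Plxna2 (0.87 on the log2 scale), Sema6c (1.01) and Plxnb2 (0.43). The Plxnb2 call held in only 4 of the 16 fits that left out 1 library. With the block these 3 passed and further members did too, such as Sema4d (limma adjusted p = 0.00315) and Sema3e (limma adjusted p = 0.00875).

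A library stood far from the other 3 of its group in 7 of 122 member and group combinations, where chance flags about 1 in 20. In 2 of these, both of Sema5b, the other 3 libraries were listed at 0, so any value above 0 is flagged, and without them the count was 5 of 120. In sorted cells, Chd4dPax7ER replicate 4 was high for Plxna1 (59.8 RPKM, the others 47.6 to 48.9) and for Sema5b (0.04 RPKM, the others 0). Chd4fl/fl replicate 1 was low for Sema3b (1.12 RPKM, the others 2.02 to 2.15), and Chd4fl/fl replicate 2 was high for Sema3e (3.46 RPKM, the others 2.95 to 2.99). In cultures, AdCRE replicate 4 was high for Sema6d (17.6 RPKM, the others 10.3 to 10.7). AdGFP replicate 4, the deepest culture library, was high for Plxna3 (9.14 RPKM, the others 5.43 to 6.04) and for Sema5b (0.00364 RPKM, the others 0).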

How the results depend on the processing

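Counts of members called in sorted cells stayed within 1.5 times under every alternative run: 10 to 14 higher and 2 to 3 lower. The replicate block, which pairs nothing there, gave 11 higher and 2 lower, the difference being Plxnb1. In cultures the block raised the counts to 12 higher (6 to 9 without 1 pair) and 4 lower (4 without each pair), and without the block leaving out 1 library gave 0 to 1 higher and 0 lower. For the difference between settings the block gave 10 members and leaving out 1 library 2 to 5, with 5 without AdGFP replicate 4. No member that passed on all libraries, with or without the block, changed sign under any alternative run. By this measure Sema3e, called in cultures with the block without pair 1, counts there as not passing. Signs changed for members that did not pass: in cultures Nrp1 (0.02 after quantile normalisation, -0.12 to 0.14 leaving out libraries, 0.03 with the block without pair 1 or 4), Nrp2 (-0.33 to 0.14), Plxna1 (-0.16 to 0.07), Plxnb1 (0.00 after TPM scaling, -0.10 to 0.18, -0.01 with the block without pair 4), Plxnc1 (-0.06 to 0.30), Sema3e (-0.07 to 0.26), Sema4b (-0.05 to 0.11) and Sema4c (-0.24 to 0.10), in sorted cells Plxnd1 (-0.06 to 0.17), Sema3d (-0.50 to 0.36) and Sema4a (-0.43 to 0.00), and in the difference Nrp1 (-0.02 to 0.24), Sema3a (-0.49 to 0.01), Sema4c (-0.31 to 0.04) and Sema4g (-0.03 to 0.18). The cause was not tested.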
